A study of Mus musculus with 2 samples.

Results

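The Zbtb genes encode transcription factors with a BTB domain at one end of the protein and C2H2 zinc fingers at the other. They were taken here as the listed mouse genes whose symbol starts with Zbtb followed by a digit, leaving out Zbtb7b and pseudogenes. The rule works on symbols alone and found 41 genes among 27179 listed genes, and the family was picked with earlier results of these data known. The symbols Zbtb8os and Zbtb11os1 fall under the rule by name only. Zbtb8os encodes archease, a cofactor of the tRNA ligase complex, and Zbtb11os1 is a non-coding RNA on the strand opposite Zbtb11.

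The BTB domain lets these proteins pair with each other and recruit corepressors such as NCoR, BCOR and histone deacetylases, while the zinc fingers choose the DNA sites. Several members direct lymphocyte fate, so the family is often studied in thymocytes and T cells. Others read methylated DNA, act at telomeres or regulate the p53 and p21 pathway.

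RNA was sequenced from ALL65, a primary T cell acute lymphoblastic leukaemia of the genotype Vav-tTA;TRE-GFP-shIkaros, grown in recipient mice and sorted from their spleens. The Vav promoter drives the tetracycline transactivator in blood cells, and the transactivator drives a short hairpin RNA against Ikaros linked to green fluorescent protein (GFP). The untreated group was sorted as GFPhigh cells with the hairpin on. The other group came from mice given doxycycline (Dox) for 3 days, which turns the hairpin off and lets Ikaros return, and was sorted as GFPmid cells. Both groups carry the same transgenes, come from a single primary leukaemia, and differ in sort gate as well as in Dox. The comparison asks which transcripts change when Ikaros comes back. With 1 library in each group there is no replicate error for any value, no test was possible, and no p-value is given.

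Counts summed to 7477988 without Dox and to 14457475 with it. Ikzf1, the gene the hairpin targets, stood at 262 counts per 1000000 (CPM) without Dox and 1455 CPM with it, in the direction the labels give. The 8 T lineage markers checked were all present, with summed levels of 4428 and 4829 CPM. The 6 B cell markers were all under 1 CPM. Of the 6 natural killer and innate-like T cell markers, 4 were under 1 CPM, and Ncr1, Klrk1 and Klrd1 had 0 counts, while Gata3 and Tbx21, which T cells also use, set the summed levels of 239 and 257 CPM. Of the 6 myeloid markers 4 were under 1 CPM, and the others were Lyz2 at 7.24 and 1.69 CPM and Itgam at 8.42 and 14.7 CPM. Of the 6 dendritic cell markers 4 were under 1 CPM, and the summed level was 47.9 and 12.4 CPM, mostly from H2-Aa. The 4 erythroid markers summed to 2.63 and 4.22 CPM. The 5 endothelial and stromal markers summed to 359 and 327 CPM. Of these, Kdr and Cdh5 had 0 counts, Pecam1, which leukocytes also carry, stood at 159 and 205 CPM, Col1a2 at 165 and 112 CPM and Pdgfrb at 35.3 and 10.5 CPM. The part of other cell types in the results was not tested. In bulk RNA, fewer cells of a type and less RNA per cell cannot be told apart.

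The median ratio of the Zbtb genes lay near 0, as did that of all genes, while single members differed. Of the 41 genes, 30 reached 5 CPM in the higher library and are compared below. Their median log2 ratio of Dox over untreated was 0.03, beside 0.01 over all 10113 genes with that minimum. A ratio of at least 1.5-fold higher was found for 1 of 30 members, Zbtb2, where 6.28% of all genes reached it. None of the 30 stood at least 1.5-fold lower, a ratio found for 6.18% of all genes. In either direction, 12.5% of all genes passed 1.5-fold. At 2-fold, 0 members passed in either direction, against 4.45% of all genes, 2.21% higher and 2.24% lower. Ratios above 0 were found for 16 members (53.3%) and for 51.8% of all genes. The members' ratios ran from -0.49 for Zbtb26 to 0.60 for Zbtb2, with a range between quartiles of 0.30 on the log2 scale, beside 0.39 for all genes. With 30 members, these shares describe the 2 libraries only.

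**Figure D1:**
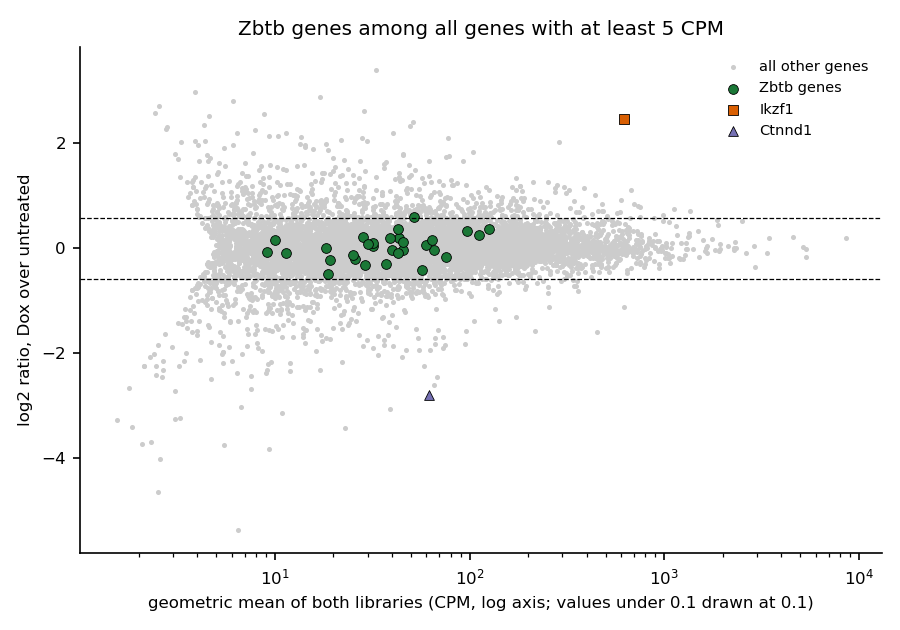
Each point is a gene that reached 5 CPM in the higher library, placed by the geometric mean of its levels in both libraries (CPM, log axis) and its log2 ratio of Dox over untreated. The 30 Zbtb genes (green) lie between -0.49 and 0.60, and the dashed lines mark 1.5-fold, which Zbtb2 alone among them passes. Ikzf1 (square) and Ctnnd1 (triangle) are marked for comparison.

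Bounds given in brackets are exact 95% intervals of the log2 ratio, and they cover counting error only, not the spread between mice. The median member had 297 untreated and 577 Dox counts, and its interval reached 0.21 to either side. The interval lay above 0 for 5 members, Zbtb2, Zbtb18, Zbtb9, Zbtb33 and Zbtb1, and below 0 for 5, Zbtb26, Zbtb34, Zbtb21, Zbtb41 and Zbtb44. These are 16.7% of the members in each direction, where 26.9% of all genes lay above 0 and 23.8% below. For the other 20 members the interval held 0, so that a difference was not detectable at this depth.

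**Figure D2:**
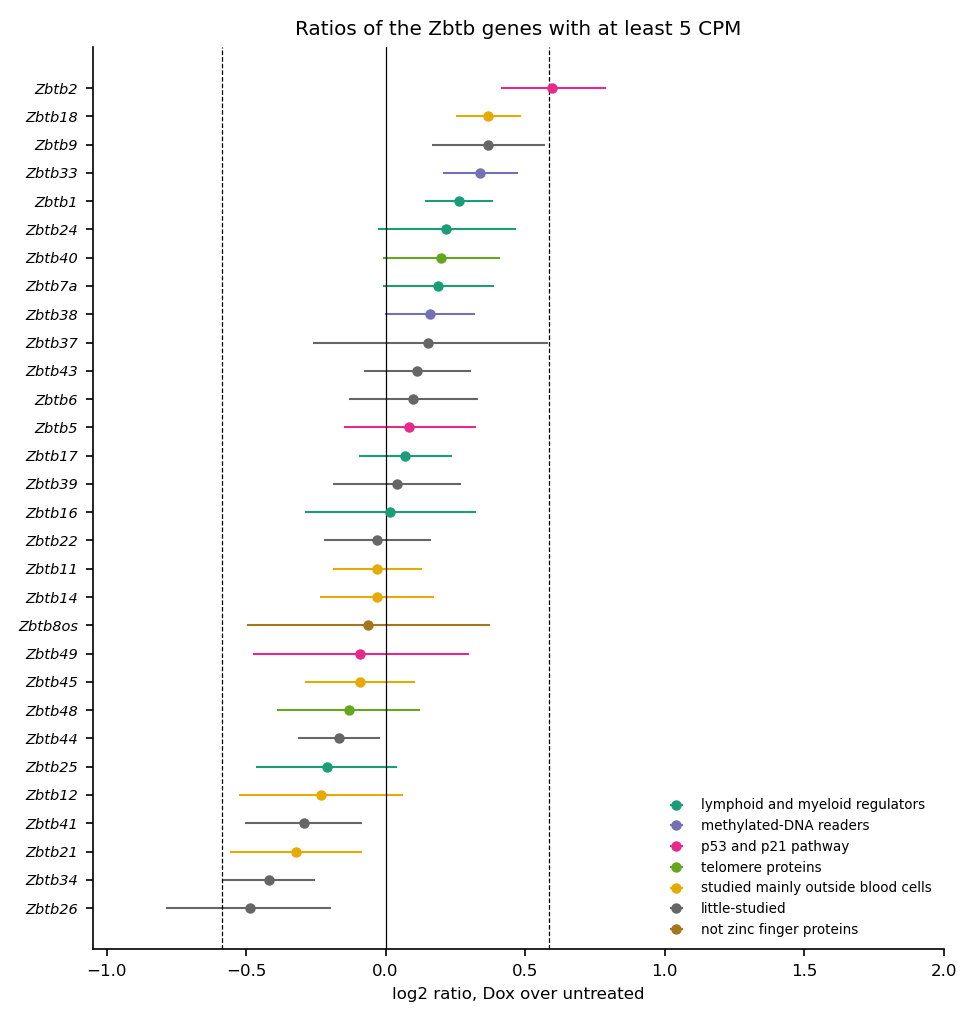
Points give the log2 ratio of Dox over untreated for the 30 Zbtb genes with at least 5 CPM, bars give the exact 95% counting interval, and colours give the role of each gene. Dashed lines mark 1.5-fold in each direction. Zbtb2 is highest at 0.60 and Zbtb26 lowest at -0.49, and 20 of the 30 bars cross 0.

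The member that differed most was Zbtb2, a repressor of genes in the p53 pathway. Its 319 counts without Dox and 905 with it correspond to 42.0 and 63.6 CPM. Its log2 ratio of 0.60 (0.41 to 0.79) is 1.51-fold, just past the 1.5-fold line, and it lay under that line when libraries were scaled by total counts. The lower bound of its interval also lies under that line. The other members of the p53 and p21 group had intervals that held 0. Zbtb5, a repressor of the p21 gene, stood at 29.3 and 31.1 CPM, which gives a log2 ratio of 0.09 (-0.15 to 0.32). Zbtb49, an activator of the p21 gene, stood at 11.8 and 11.1 CPM with one of -0.09 (-0.47 to 0.30). The p21 gene itself, Cdkn1a, was scarce, with 13 and 17 counts.

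Among the lymphoid and myeloid regulators, 6 of 9 were compared and none reached 1.5-fold, beside 12.5% of all genes. Zbtb1, which developing lymphocytes need, had the highest level of the family per length. It had 778 and 1747 counts, 102 and 123 CPM, which gives a log2 ratio of 0.26 (0.14 to 0.39). Zbtb7a (LRF), which keeps Notch signals in check when lymphoid progenitors choose their fate, stood at 40.7 and 46.3 CPM, which gives a log2 ratio of 0.19 (-0.01 to 0.39). Zbtb24, a gene mutated in an inherited immunodeficiency with DNA methylation defects, stood at 26.2 and 30.4 CPM with one of 0.22 (-0.03 to 0.47). Zbtb17 (Miz-1), a DNA-binding partner of Myc, had 58.0 and 60.9 CPM, which gives a log2 ratio of 0.07 (-0.10 to 0.24). Zbtb16 (PLZF), which directs innate-like T cells, was at 18.2 and 18.3 CPM with one of 0.01 (-0.29 to 0.32). Zbtb25 had the lowest log2 ratio of the 6 compared, -0.21 (-0.46 to 0.04), at 27.8 and 24.0 CPM.

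The remaining lymphoid and myeloid members were at or near the detection limit in both libraries. Zbtb46, a marker of conventional dendritic cells, and Zbtb20, which plasma cells use, had 0 counts in both. A count of 0 allows up to 0.395 CPM in the untreated library and 0.211 CPM in the Dox library, for counting error only. For Zbtb20 the deposited gene length was 3145 bases, while the exons of the gene in GENCODE cover 30730 bases. For Zbtb46 these were 3336 and 8508 bases. Most of the exon sequence of both genes may therefore not have been counted, and the 0 does not show that either gene is silent. Zbtb32, which restrains lymphocyte activation, had 2 and 3 counts.

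Of the 3 readers of methylated DNA, Zbtb33 and Zbtb38 were compared, and both had ratios above 0, as did 51.8% of all genes. Zbtb33 (Kaiso) had 657 and 1556 counts, 86.4 and 109 CPM, which gives a log2 ratio of 0.34 (0.21 to 0.47). Zbtb38 stood at 60.8 and 67.8 CPM, which gives a log2 ratio of 0.16, and its interval held 0. The third reader, Zbtb4, was scarce with 5 and 27 counts, 0.658 and 1.90 CPM. Its fitted log2 ratio was 1.31 (0.13 to 3.26), an interval too wide to give its size.

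The telomere proteins Zbtb40 and Zbtb48 had log2 ratios of 0.20 (-0.01 to 0.41) and -0.13 (-0.39 to 0.13), at 36.6 and 42.0 CPM and at 26.4 and 24.1 CPM. Zbtb48 (TZAP) binds telomere repeats and trims long telomeres. Zbtb10, the remaining telomere protein, was listed at 0 counts in both libraries over a deposited length of 7449 bases. Whether the counting or the cells gave that 0 was not tested.

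Of the 8 members studied mainly outside blood cells, 6 were compared. Ratios lay below 0 for 5 of these, while over all genes 51.8% of ratios lay above 0. The intervals of Zbtb11, Zbtb14, Zbtb45 and Zbtb12 held 0. Zbtb18 (RP58), a repressor known from the developing brain, stood above 0. With 840 and 2031 counts it had the most counts of the family, 111 and 143 CPM, and its log2 ratio was 0.37 (0.25 to 0.49). Zbtb21 had the lowest log2 ratio of the 6 compared, -0.32 (-0.56 to -0.08), at 32.5 and 26.0 CPM. Zbtb11, which mitochondrial function depends on, stood at 66.1 and 64.7 CPM with one of -0.03 (-0.19 to 0.13). Zbtb45 and Zbtb14 also lay close to 0, at -0.09 and -0.03, and Zbtb12 stood at -0.23 (-0.53 to 0.06). Zbtb7c had 0 counts and Zbtb42 had 6 and 2.

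Of the 13 little-studied members 10 were compared, 5 above 0 and 5 below, where 51.8% of all genes were above. Zbtb26 had 169 and 225 counts, 22.2 and 15.8 CPM, and the lowest log2 ratio of the 30, -0.49 (-0.79 to -0.20), or 1.40-fold lower with Dox. Zbtb34 had 501 and 701 counts, 65.9 and 49.3 CPM, which gives a log2 ratio of -0.42 (-0.59 to -0.25). Zbtb41 stood at -0.29 (-0.50 to -0.09) and Zbtb44 at -0.17 (-0.31 to -0.02). On the other side, Zbtb9 had 37.6 and 48.6 CPM, which gives a log2 ratio of 0.37 (0.17 to 0.57). In GENCODE other genes, Ggnbp1 on the same strand among them, share 2938 of its 3482 exon bases, so its counts may include reads of those genes. Zbtb37, Zbtb43, Zbtb6, Zbtb39 and Zbtb22 lay between -0.03 and 0.15, each with an interval that held 0. Zbtb8os, the archease gene, was at 9.34 and 8.93 CPM, which gives a log2 ratio of -0.06 (-0.50 to 0.37).

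The 11 members under 5 CPM included those with the largest fitted ratios, which rested on few counts. With a minimum of 1 CPM, 3 of 34 members were at least 1.5-fold higher, where 8.2% of all genes were, and 1 was at least 1.5-fold lower, where 8.88% were. The additions were Zbtb4 and Zbtb3, the latter with 14 and 52 counts and a log2 ratio of 0.92 (0.12 to 1.96), and Zbtb11os1. At 2-fold under that minimum, 1 member was higher and 1 lower, against 3.46% and 3.74% of all genes. Without any minimum the numbers at 1.5-fold were 3 higher and 2 lower of 41, against 6.62% and 7.38% of all genes. At 2-fold they were 1 and 2, against 2.88% and 2.74%. Zbtb42, the addition on the lower side, had 8 counts in all. Zbtb8a had 37 and 61 counts, and the 5 members with 0 counts in both libraries were Zbtb7c, Zbtb8b, Zbtb10, Zbtb20 and Zbtb46.

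Levels between genes are compared per length, as counts per kilobase and per 1000000 counts (RPKM) from the deposited gene lengths. The 30 members ran from 2.44 to 25.7 RPKM in the untreated library and from 2.72 to 30.8 RPKM with Dox, an 11.3-fold span in the Dox library. Their medians of 10.7 and 10.2 RPKM lay under those of all genes with the same minimum, 17.3 and 17.5 RPKM. The median deposited length was 4313 bases for these members and 2849 for all genes. In CPM, which takes no account of length, the medians were 39.1 and 40.6, beside 47.9 and 47.9 for all genes. Together all 41 members made up 0.133% of all counts without Dox and 0.137% with it.

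By the mean of both libraries, the order began with Zbtb1 at 25.7 and 30.8 RPKM, Zbtb18 at 21.6 and 28.0 RPKM and Zbtb45, which is known from glial differentiation, at 20.7 and 19.4 RPKM. Next were Zbtb33 at 16.9 and 21.4 RPKM and Zbtb17 at 17.0 and 17.8 RPKM. The order was largely kept between libraries, and 9 of the 10 highest members were shared. Neighbours in the order mostly could not be told apart, since the counting intervals of adjacent genes separated at 4 of 29 steps in the untreated library and at 9 of 29 with Dox. Zbtb1 lay above Zbtb18 beyond counting error in both libraries. These levels depend on the length used, which for 8 of 41 members was under 50% of the exon bases in GENCODE. Zbtb1 is among those, with 3987 deposited against 12190 GENCODE bases, as is Zbtb2 with 3227 against 7374.

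**Figure D3:**
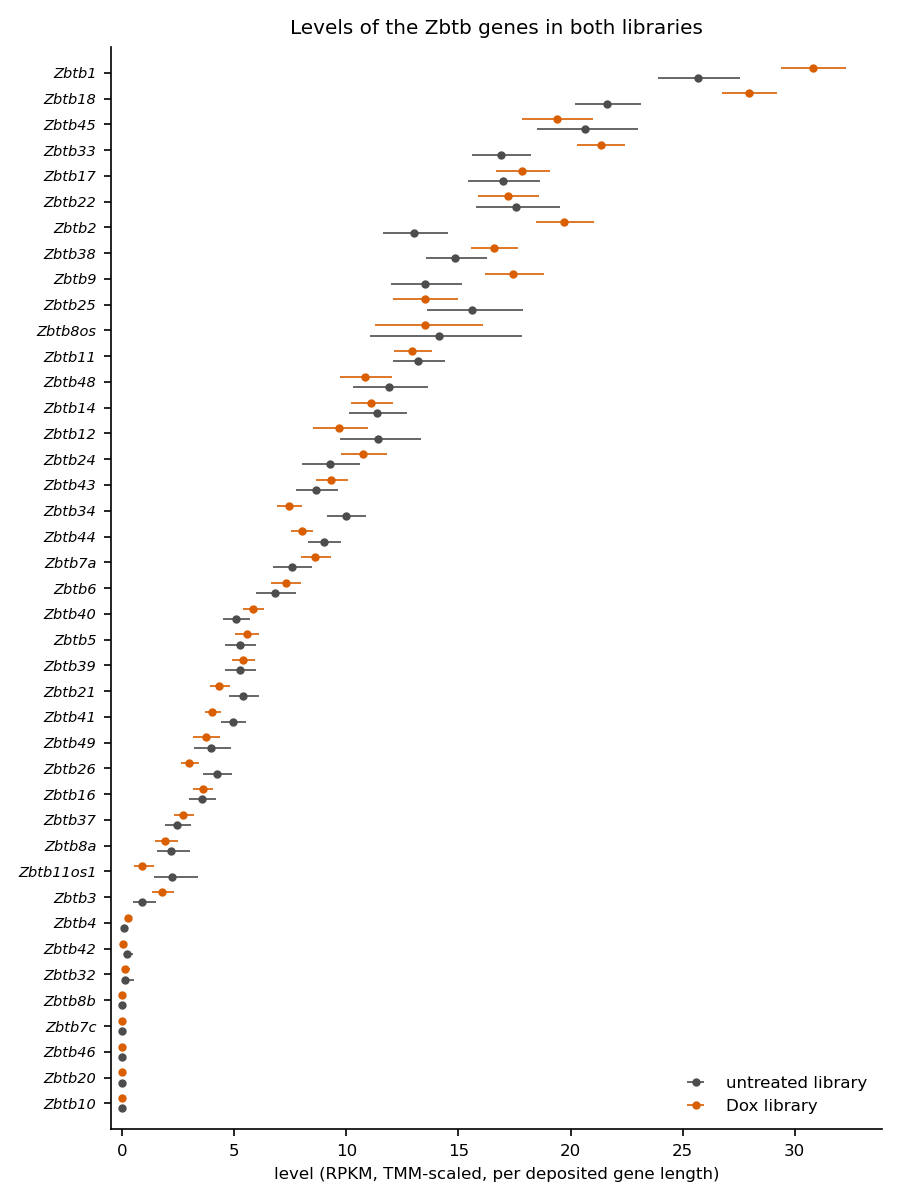
Points give the level of each of the 41 Zbtb genes in the untreated (grey) and Dox (orange) libraries in RPKM, and bars give exact 95% counting intervals. Genes are ordered by the mean of both libraries, from Zbtb1 at 25.7 and 30.8 RPKM down to 5 genes at 0.

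Some members lie next to each other on a chromosome, and 3 such neighbouring sets had both genes at 5 CPM or more. They were singled out after their values were seen. On chromosome 12 in mm10, Zbtb25 (76348900 to 76370214) and Zbtb1 (76370051 to 76396955) lie head to head on opposite strands. Their RefSeq spans share 164 bases, while in GENCODE the exons of each share 0 bases with other genes. Zbtb25 had a log2 ratio of -0.21 and Zbtb1 one of 0.26. On chromosome 2, Zbtb34 (33406108 to 33431324) and Zbtb43 (33450287 to 33468581) had log2 ratios of -0.42 (-0.59 to -0.25) and 0.11 (-0.08 to 0.31). Further along chromosome 2, Zbtb6 (37425500 to 37430919) and Zbtb26 (37432168 to 37443172) lie 1248 bases apart and had log2 ratios of 0.10 (-0.13 to 0.33) and -0.49 (-0.79 to -0.20). In all 3 sets the counting intervals did not overlap, while that of 1 gene in each, Zbtb25, Zbtb43 and Zbtb6, held 0. Among 5469 neighbouring sets of genes with both at 5 CPM or more, the intervals did not overlap in 37.3%. The gap between Zbtb6 and Zbtb26 is that of the RefSeq models. In GENCODE their exons share 449 bases on the same strand, and which gene such reads were counted for was not tested.

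**Figure D4:**
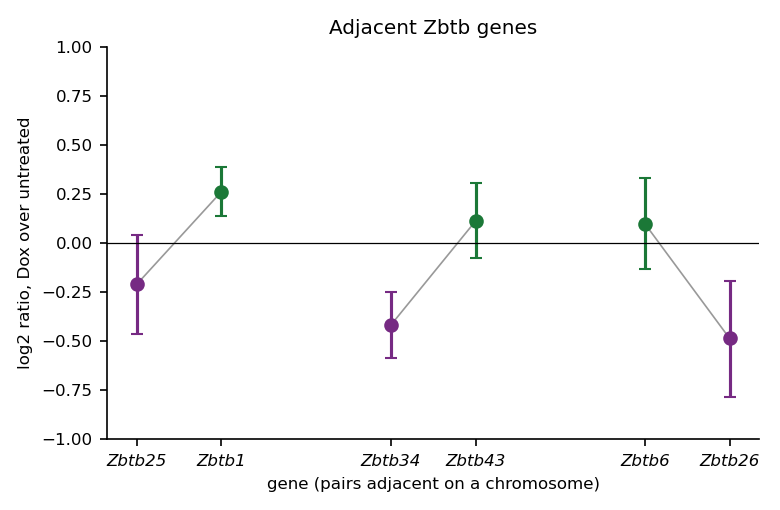
Points give the log2 ratio of Dox over untreated for Zbtb genes adjacent on a chromosome, and bars give exact 95% counting intervals. In each of the 3 sets, the point of 1 gene lies above 0 (green) and that of its neighbour below (purple), with bars that do not overlap, though 1 bar in each set crosses 0.

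The spans of Zbtb11 and Zbtb11os1, the non-coding RNA opposite it, overlap by 1350 bases, introns included. Of the exon bases of Zbtb11os1 in GENCODE, 489 are shared with Zbtb11. The RNA had 23 and 17 counts, 3.03 and 1.20 CPM, which gives a log2 ratio of -1.22 (-2.34 to -0.37), while Zbtb11 stood at -0.03. Without a stated strand setting, reads from the shared exons cannot be told apart. In GENCODE, 18 of the 41 members share exon bases with another gene.

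The start regions of the members were read from RefSeq (GRCm38.p6, the assembly behind mm10), which held 300-base windows, from 250 bases before to 50 after a start, for 36 of the 41 genes. The sequences below belong to the member with the highest ratio, Zbtb2, to the pair with the lowest, Zbtb26 and Zbtb34, and to Zbtb25, which lies head to head with Zbtb1. Each is the longest run before the start that no GENCODE exon overlaps, written 5′ to 3′ on the gene's strand. All 4 genes are on the minus strand, and the stretches are chr10:4388109-4388358 for Zbtb2, chr2:33431325-33431574 for Zbtb34, chr2:37443173-37443278 for Zbtb26 and chr12:76369603-76369810 for Zbtb25. The Zbtb25 stretch precedes a start inside the gene, which runs from 76348900 to 76370214. That stretch does not reach the 164 bases shared with Zbtb1. Capitals mark a match to TGGGAA, which holds the GGGA core that Ikaros binds, or to its reverse complement TTCCCA. The GGGA core by itself was not marked, and it occurs in lower case in all 4 stretches.
Zbtb2: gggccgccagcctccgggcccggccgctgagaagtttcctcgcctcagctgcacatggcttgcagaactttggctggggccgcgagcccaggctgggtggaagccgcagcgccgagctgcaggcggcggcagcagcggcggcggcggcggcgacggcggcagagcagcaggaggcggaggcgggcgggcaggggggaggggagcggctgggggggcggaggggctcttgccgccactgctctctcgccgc
Zbtb34: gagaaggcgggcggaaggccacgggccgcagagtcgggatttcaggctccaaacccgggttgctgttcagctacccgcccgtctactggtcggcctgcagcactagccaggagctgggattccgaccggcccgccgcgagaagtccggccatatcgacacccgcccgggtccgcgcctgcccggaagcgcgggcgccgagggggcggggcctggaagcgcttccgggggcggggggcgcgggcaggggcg
Zbtb26: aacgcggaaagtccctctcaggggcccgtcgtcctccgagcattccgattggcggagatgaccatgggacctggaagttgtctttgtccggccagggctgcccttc
Zbtb25: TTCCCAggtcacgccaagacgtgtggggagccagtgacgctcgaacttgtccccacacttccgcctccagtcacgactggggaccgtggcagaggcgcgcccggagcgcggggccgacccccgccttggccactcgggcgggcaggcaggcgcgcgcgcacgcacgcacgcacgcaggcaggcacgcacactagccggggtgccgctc

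These stretches are rich in G and C, which make up 77.2% of the Zbtb2 stretch, 74.4% of that of Zbtb34, 73.6% of that of Zbtb25 and 62.3% of that of Zbtb26. Over the windows of members with at least 5 CPM, the median share of G and C was 67.3%, and the CG dinucleotide occurred a median of 29 times. Over all genes with that minimum the medians were 61% and 21. TGGGAA, searched on both strands, was found in 4 of these 37 windows of 27 members (10.8%), some of which overlap each other. The 4 windows were 1 each of Zbtb11, Zbtb22, Zbtb24 and Zbtb25. Zbtb25 has a further window, which overlaps the one with the match and holds no match itself. TGGGAA was found in 22.6% of 10117 windows of all genes with at least 5 CPM and in 25.6% of all 32851 windows. The 4 members with a match had log2 ratios of -0.03, -0.03, 0.22 and -0.21. A match is a string of letters and no measured binding site.

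Related BTB zinc finger genes and corepressors stood near 0 as well. Of the 8 BTB zinc finger genes with other symbols, 6 reached 5 CPM, with a median log2 ratio of -0.02 and 0 past 1.5-fold, where 12.5% of all genes were. Bcl6, the repressor of germinal centre and follicular helper T cells, stood at 23.7 and 24.3 CPM, which gives a log2 ratio of 0.03 (-0.23 to 0.30). Patz1, with 1204 and 1709 counts and 158 and 120 CPM, had the ratio farthest from 0, -0.40 (-0.51 to -0.29). Bcl6b had 0 counts, and Hic1 had 1 and 6.

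All 12 corepressor and ubiquitin ligase partners reached 5 CPM, with a median log2 ratio of 0.04 and 0 past 1.5-fold, again beside 12.5% of all genes. Ncor1 had one of 0.04 (-0.01 to 0.09) and Bcor one of 0.04 (-0.03 to 0.12). Cul3, a ligase scaffold that binds BTB domains, had one of 0.18 (0.10 to 0.25). These 12 values lay between -0.13 and 0.20.

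Of 16 listed targets and partners of single members, 14 reached 5 CPM, with a median log2 ratio of 0.05. At least 1.5-fold lower with Dox were 2 of the 14, and 0 were at least 1.5-fold higher, where 6.18% and 6.28% of all genes were. Ratios were above 0 for 7 and below for 7, where 51.8% of all genes were above. The interval lay above 0 for 6 and below 0 for 5, where 26.9% and 23.8% of all genes did. The 14 had more counts than all genes, with medians of 793.5 and 364 in the untreated library, and so narrower intervals. The median interval reached 0.13 to either side, beside 0.19 for all genes. Ctnnd1 encodes p120 catenin, the adhesion protein that binds Kaiso, the product of Zbtb33. It went from 1242 counts (163 CPM) without Dox to 332 (23.3 CPM) with it, which gives a log2 ratio of -2.80 (-2.99 to -2.63), or 6.96-fold lower. Zbtb33 itself stood at 0.34, as given above. Myc, the partner of the Zbtb17 product Miz-1, was 1.65-fold lower at 450 and 273 CPM, while Zbtb17 stood at 0.07 and the Myc partner gene Max at -0.01 (-0.12 to 0.10). Cdca7, a gene that the Zbtb24 protein activates, stood at 619 and 483 CPM, which gives a log2 ratio of -0.36 (-0.41 to -0.30), and Zbtb24 at 0.22 (-0.03 to 0.47). The highest ratios of the list were those of Nfatc1 at 0.45 (0.32 to 0.57), Socs1 at 0.44 (0.10 to 0.81) and Mdm2 at 0.33 (0.22 to 0.45). Mdm2 encodes the ubiquitin ligase of p53, Socs1 an inhibitor of cytokine signalling and Nfatc1 a calcium-regulated transcription factor. Patz1, Cdca7, Max, Nfatc1, Socs1, Mdm2 and the corepressor genes were named after their values were seen.

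**Figure D5:**
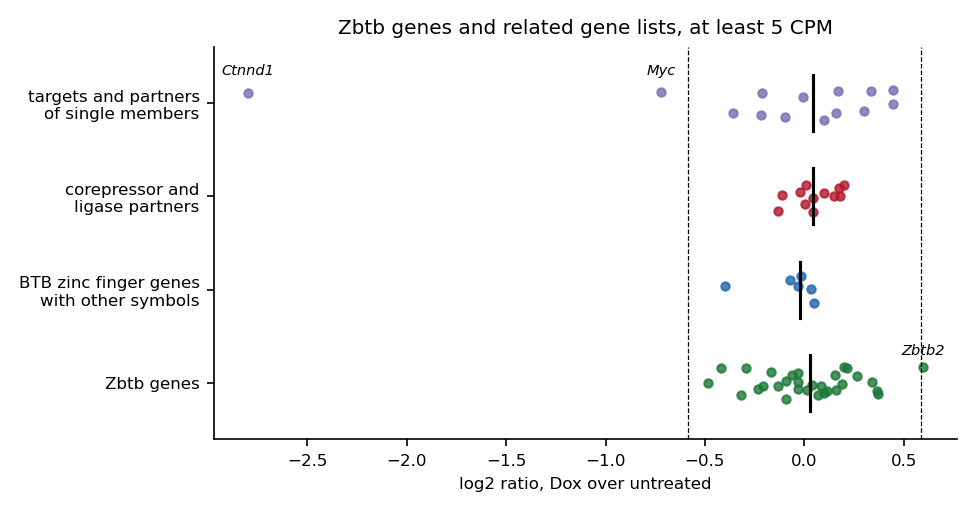
Points give the log2 ratio of Dox over untreated for the 30 Zbtb genes and for the members of 3 related lists with at least 5 CPM, spread vertically for legibility, and the black bar gives each median. Dashed lines mark 1.5-fold. Zbtb2 at 0.60, Myc at -0.72 and Ctnnd1 at -2.80 are the 3 genes outside the lines.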

How the data were processed

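The authors' deposited tables hold counts, whole numbers of reads per gene, with a gene length, in 1 column per group. The design text names 3 mice per group and 2 runs of each RNA. Per the submitters' processing notes, the tools were CASAVA 1.8.2 and featureCounts and the build mm10. How mice and runs were combined, the aligner, the annotation, the strand setting and the handling of shared reads are things not given in the sources used here. Series and sample files differed in 0 values.

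Symbols came from RefSeq by Entrez number, which named all 41 members. Counts were scaled by TMM (edgeR 4.0.16, R 4.3.3). Log2 ratios used a prior count of 2, and intervals are Clopper-Pearson at 95% on the share of counts, or exact Poisson for RPKM. Ratios and intervals were tested on simulated data. Members and gene lists were chosen with earlier results of these data known. Genes described in full were those past 1.5-fold with at least 5 CPM, the 5 highest by RPKM and the lymphoid group, and the others were named after their values were seen. Alternatives were scaling by DESeq2 1.42.0 or by total counts, a prior count of 0.5 or 5, a minimum of 1 CPM, of 20 CPM or none, thinned Dox counts, and the interval bound in place of the ratio. Python 3.11.15 was used for the remaining steps.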

Additional observations from a re-analysis of the deposited data

How the results depend on the processing

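The median log2 ratio of the Zbtb genes stayed between -0.02 (total counts) and 0.06 (at least 20 CPM) under the 8 alternatives that bear on it, and that of Ikzf1 between 2.43 and 2.48. The number of members at least 1.5-fold higher with Dox, 1 as reported, was 0 with total counts and 0 when the bound of the interval had to pass. It was 3 with a minimum of 1 CPM and 3 with no minimum, where the number at least 1.5-fold lower was 1 and 2. At 2-fold, 1 member was higher and 1 lower with a minimum of 1 CPM, and 1 higher and 2 lower with none. The other alternatives left these numbers as reported. Of 150 single-gene values over 5 alternatives, all 150 stayed within the gene's interval, and 6 changed sign, for Zbtb11, Zbtb16, Zbtb39 and Zbtb49. Staying within the interval was largely set in advance. Rescaling shifts all genes alike, by at most 0.05, prior counts matter little at these counts, and thinning draws from the same counts. With 1 library per group, depth sets the counting interval, and the spread between mice is not measured.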
